A study of Homo sapiens with 6 samples.

Results

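The interferon-stimulated and nucleic acid sensing genes described here are 39 genes of the 60607 in the deposited tables, taken by gene symbol. All 39 were listed. A total of 28 passed the filter on low counts and were tested, and 11 were too low to test. RNA was sequenced from PLC/PRF/5, an established line of human hepatocellular carcinoma, 48 h after transfection with siRNAs against the splicing factor SLU7 (siSLU7, 3 libraries) or with an irrelevant siRNA (siGL2, 3 libraries). Both groups received siRNA, which is itself double-stranded RNA, and libraries of untransfected cells were not analysed here. The results come from 1 cell line and 1 time point. The labels describe transfection in triplicate and do not say whether the triplicates were separate cultures on separate days, so the p-values measure the spread between these libraries, which may be technical.

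Cells detect foreign or misplaced nucleic acid with cytosolic sensors. IFIH1 (MDA5) binds long double-stranded RNA and signals through the mitochondrial adaptor MAVS, and CGAS binds DNA and signals through STING1. Both routes activate IRF3 and IRF7, which switch on interferon genes, and secreted interferon then acts through receptors, Janus kinases and STAT2 with IRF9 to induce antiviral genes such as the IFIT, OAS and MX families. Many of these genes carry an interferon-stimulated response element (ISRE) in the promoter, and IRF1 is known for a gamma-activated site (GAS) in its own.

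The letters that define those elements are shown first, since the response of many of these genes to interferon runs through them. Promoter sequences came from RefSeq (GRCh38.p14), which held 28 of the 39 genes by symbol among 35116 promoters. Each line ends at the base before the RefSeq start of the gene. Capitals mark the ISRE core GAAANNGAAA or the GAS letters TTCNNNGAA, each searched on both strands in the 250 bases before the start. IRF1, MAVS and IFI35 are shown because they passed the expression test, and IFIT1 and ISG15 because they are classical interferon-stimulated genes that did not.
IRF1 (chr5:132490774-132490923, minus strand): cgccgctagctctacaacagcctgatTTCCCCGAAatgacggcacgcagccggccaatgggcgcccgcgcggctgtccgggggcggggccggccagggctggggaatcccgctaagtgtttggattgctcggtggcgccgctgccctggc
MAVS (chr20:3846684-3846833, plus strand): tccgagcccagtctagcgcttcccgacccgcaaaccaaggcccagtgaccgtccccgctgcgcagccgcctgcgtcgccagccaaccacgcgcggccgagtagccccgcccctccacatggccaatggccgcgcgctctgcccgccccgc
IFI35 (chr17:43006634-43006783, plus strand): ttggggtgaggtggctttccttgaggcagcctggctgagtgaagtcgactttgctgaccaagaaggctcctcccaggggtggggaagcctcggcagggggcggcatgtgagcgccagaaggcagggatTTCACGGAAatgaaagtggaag
IFIT1 (chr10:89392503-89392622, plus strand): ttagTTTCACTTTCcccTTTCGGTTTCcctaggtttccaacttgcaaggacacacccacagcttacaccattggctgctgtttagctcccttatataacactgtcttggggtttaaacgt
ISG15 (chr1:1013377-1013496, plus strand): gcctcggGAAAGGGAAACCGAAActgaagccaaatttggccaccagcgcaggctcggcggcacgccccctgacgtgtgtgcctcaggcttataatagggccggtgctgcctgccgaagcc

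The ISRE core was present in 14 of the 28 promoters, against 3.02% of all 35116 promoters. The 14 were those of ISG15, IFI6, IFI44L, IFI44, GBP1, IFIH1, PARP14, IFIT3, IFIT1, IFIT5, OAS3, IFI27, ISG20 and BST2. In IFIT1 the element lay on the opposite strand, with matches that begin 116 and 103 bases before the start. In ISG15 there were overlapping matches that begin 113 and 107 bases before the start. The GAS letters were present in 7 of 28 promoters (25.0%), against 6.57% of all, and those of IRF1 began 124 bases before the start. These are letter matches and not measurements of binding.

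SLU7 itself, the target of the siRNAs, had 9.38, 8.29 and 10.5 CPM (counts scaled to the normalised size of the library) in siSLU7 libraries, against 20.9, 17.1 and 18.4 CPM in siGL2 libraries. All siSLU7 libraries lay below all siGL2 libraries. The log2 fold change was -1.002 (SE 0.18, adjusted p = 0.0139, edgeR quasi-likelihood test with Benjamini-Hochberg adjustment). On log2(TPM + 1), where TPM is a unit per transcript length, the difference was only -0.06. The median of all genes stood at 0.35 on that scale, so SLU7 was below it. The libraries held 5191452 to 6315740 estimated counts in siSLU7 and 7736584 to 8693977 in siGL2. Mitochondrial ribosomal RNA took 29.9 to 35.3% of counts in siSLU7 and 16.8 to 24.1% in siGL2, while 7SL RNA took 7.95 to 10.5% in siSLU7 and 15.4 to 22.9% in siGL2. Replicate 3 of siSLU7 and replicate 1 of siGL2 are called below the libraries that stood apart. Their deviations from the group means ran together across genes (r = 0.44). Replicate 1 of siSLU7 and replicate 3 of siGL2 also did so (r = 0.38). These values do not measure how far a library lay from its group. All 14 hepatocyte markers were detected, summing to 20611 to 28077 CPM in siSLU7 and 21612 to 33065 CPM in siGL2. Immune markers were detected for 11 of 12 genes (MS4A1 at 0) and summed to 50.3 to 58.1 CPM in siSLU7 and 52.1 to 68.7 CPM in siGL2. Fibroblast markers were detected for 6 of 8 genes (COL3A1 and LUM at 0) and summed to 11.997 to 13.6 CPM in siSLU7 and 15.1 to 26.8 CPM in siGL2. Endothelial markers were detected for 5 of 7 genes (KDR and TEK at 0) and summed to 5.16 to 7.85 CPM in siSLU7 and 4.29 to 5.28 CPM in siGL2. Single markers passed the edgeR test within these sums: the leukocyte marker PTPRC was higher in siSLU7 (log2 fold change 2.01, adjusted p = 0.0223), the hepatocyte marker TTR was higher (1.54, adjusted p = 0.0243), and the fibroblast marker PDGFRB was lower (-0.90, adjusted p = 0.0402, edgeR). PTPRC had only 12, 11 and 8 counts in siSLU7, against 3, 3 and 4 in siGL2. The other tested immune markers, LYZ, CSF1R and CD68, did not pass. In all, 1 of 14 tested hepatocyte, 1 of 4 immune, 1 of 2 fibroblast and 0 of 2 endothelial markers passed, against 13.9% of all genes. The part of library quality and of these markers in the results below was not tested. The cells were of 1 line, and bulk libraries cannot tell a change in some of its cells from a change in all.

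Many of these genes were weakly expressed in both groups. On TPM, which allows levels of different genes to be compared, 4 of the 39 averaged over 10 TPM across the 6 libraries, 18 lay between 1 and 10 TPM, and 17 lay at 1 TPM or less. The median of the 17109 tested genes was 3.93 TPM, and 17 of the 39 were above it. That median holds only genes past the filter, and all 17 were among the 28 tested genes. ADAR, an enzyme that edits adenosine to inosine in double-stranded RNA, ranked first with a mean of 33.8 TPM in siSLU7 and 25.5 TPM in siGL2. TRIM25, a ubiquitin ligase of the RNA sensing route, averaged 26.0 TPM in siSLU7 and 16.1 TPM in siGL2. By contrast IFIT1, which binds viral RNA ends, averaged 0.541 TPM in siSLU7 and 0.376 TPM in siGL2. The sensor IFIH1 averaged 0.516 TPM in siSLU7 and 0.458 TPM in siGL2.

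**Figure D1:**
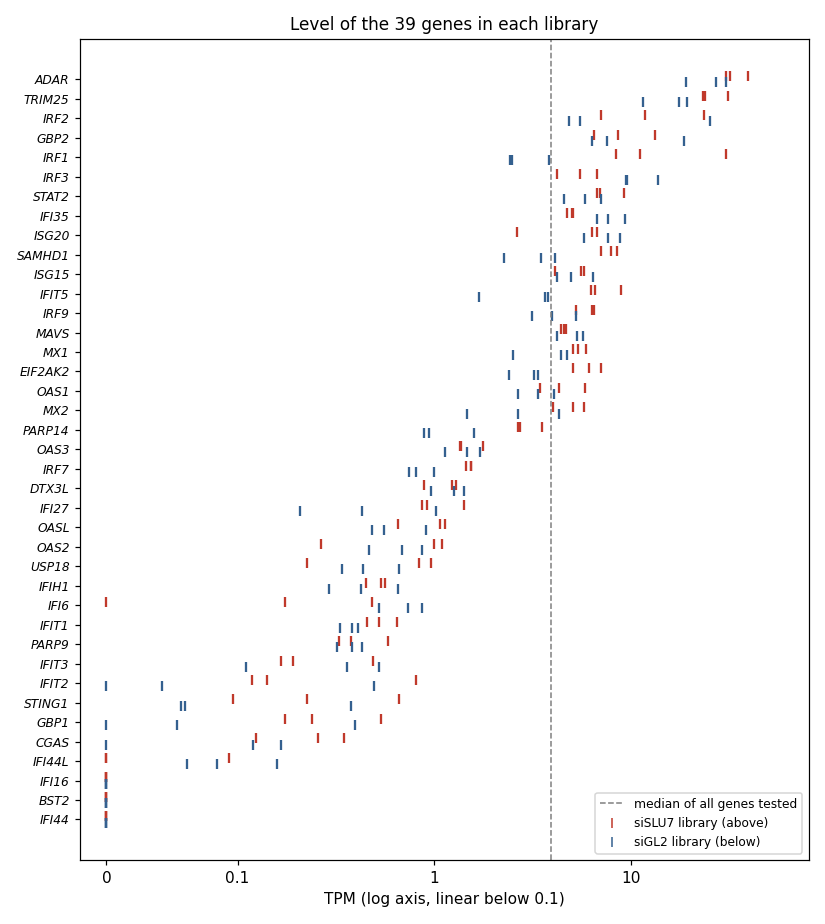
TPM of each of the 39 genes in each library, on a log axis that is linear below 0.1, with genes ordered by their mean over all 6 libraries; red ticks are siSLU7 libraries and blue ticks siGL2 libraries. The dashed line is the median of all tested genes (3.93 TPM); ADAR stands at the top and IFI16, BST2 and IFI44 are at 0 in every library.

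The 11 genes too low to test included the DNA sensing pair and most of the small interferon-induced proteins. IFI16, a DNA sensor, BST2 (tetherin, which holds budding virions at the cell surface) and IFI44 had 0 counts in every library, which allows up to 3 counts, or 0.377 to 0.561 CPM per library. These limits cover counting error only. CGAS had 10, 6 and 3 counts in siSLU7, against 0, 7 and 7 in siGL2. STING1 had 1, 7 and 2 counts in siSLU7, against 3, 2 and 2 in siGL2. The DNA sensing pair was thus near the detection limit in both groups. IFIT2 had 3, 6 and 3 counts in siSLU7, against 7, 3 and 0 in siGL2. IFIT3 had 6, 5 and 6 counts in siSLU7, against 6, 7 and 11 in siGL2. GBP1, an interferon-induced GTPase, had 3, 2 and 3 counts in siSLU7, against 11, 4 and 0 in siGL2. None of these separated the groups. IFI6 had 3, 0 and 1 counts in siSLU7, against 6, 12 and 8 in siGL2. IFI27 had 8, 6 and 12 counts in siSLU7, against 6, 4 and 10 in siGL2. IFI44L had 5, 0 and 0 counts in siSLU7, against 2, 9 and 13 in siGL2. Only IFI6 among the 11 had counts that did not overlap between the groups, before any allowance for the smaller siSLU7 libraries. For comparison, the CPM of the groups did not overlap for 36.6% of all tested genes (18.8% lower in siSLU7).

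Of the 28 tested genes, 4 passed the test at an adjusted p under 0.05: IRF1 was higher in siSLU7, and MAVS, IRF3 and IFI35 were lower. That is 14.3% of the 28, against 13.9% of all 17109 tested genes, so the share was that of the background. By direction, 1 of 28 was higher (background 5.93%) and 3 of 28 were lower (background 7.93%). The CPM of the groups did not overlap for 9 of the 28 (3 higher and 6 lower in siSLU7), against a background of 36.6% of all genes (17.8% higher and 18.8% lower). The median log2 fold change of the 28 was -0.13, beside -0.01 over all tested genes, with 9 positive and 19 negative values. With both libraries that stood apart left out, 5 of the 28 passed, the same 4 and ISG20, against a background of 29.8%.

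**Figure D2:**
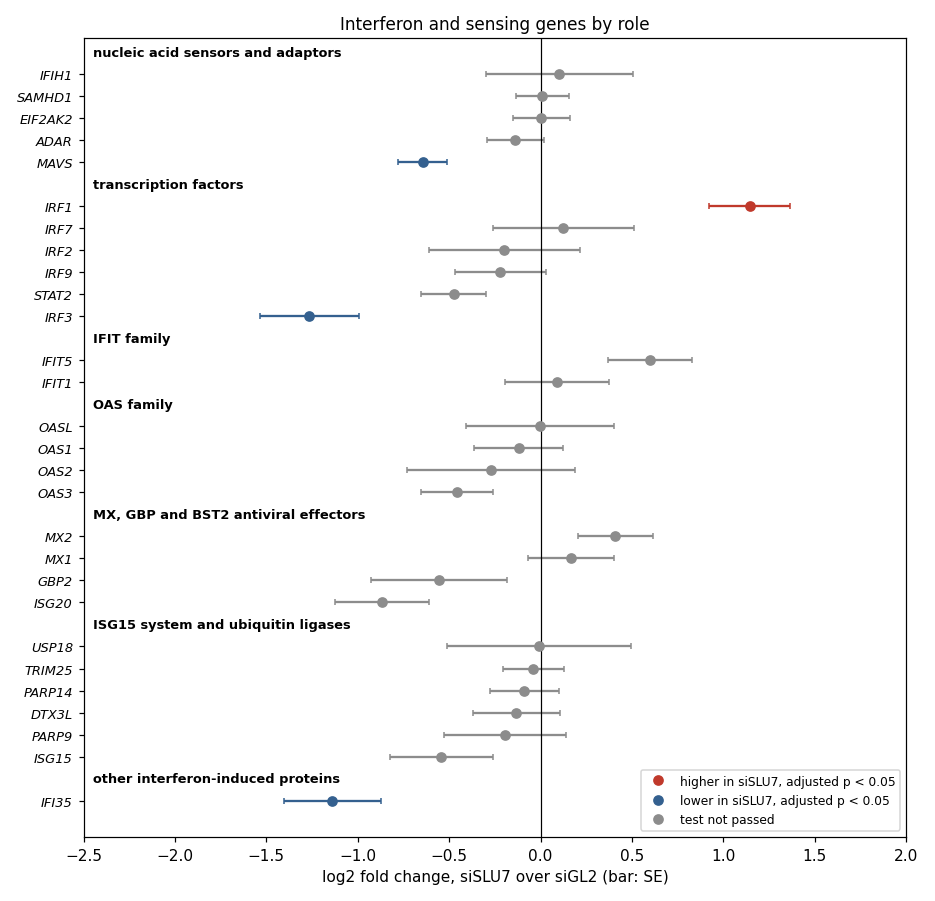
Log2 fold change, siSLU7 over siGL2, of the 28 tested genes grouped by role; points are the edgeR estimates and bars their SE. IRF1 (1.14) is the red point to the right, MAVS (-0.64), IRF3 (-1.26) and IFI35 (-1.14) are the blue points to the left, and grey points did not pass the test.

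Among sensors and adaptors, MAVS fell and the other 4 tested genes did not pass. MAVS had 85.7, 85.5 and 85.8 CPM in siSLU7, against 135, 133 and 133 CPM in siGL2. The mean was 85.7 ± 0.118 CPM in siSLU7 and 134 ± 1.32 CPM in siGL2 (SD, n = 3 each), and the groups did not overlap. MAVS had 557, 464 and 459 counts in siSLU7, against 1078, 994 and 1042 in siGL2. At such counts these SDs are smaller than counting error alone, so they understate the spread between libraries. The log2 fold change was -0.64 (SE 0.13, adjusted p = 0.0195, edgeR). All counts of MAVS came from protein-coding transcripts, 96.5% of them from MAVS-202, a transcript of 11731 bases that encodes 540 amino acids. With protein-coding transcripts alone the log2 fold change of MAVS was -0.52 (adjusted p = 0.0438, edgeR), in a fit that called 12.4% of all genes. On log2(TPM + 1) it was -0.12, and the test was not passed (adjusted p = 0.709, limma). Relative to the median of all genes, which itself stood at 0.35 on that scale, it was -0.48. Here and below, limma tested the difference from 0, and values relative to the median were not tested. The call was also lost with transcript length offsets, where the log2 fold change was still -0.64 (adjusted p = 0.0733, edgeR).

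EIF2AK2, the kinase PKR that halts translation on binding double-stranded RNA, had 34.6, 35.6 and 27.8 CPM in siSLU7, against 30.7, 33.4 and 33.9 CPM in siGL2. SAMHD1, which degrades deoxynucleotides and restricts viruses, had 24.1, 23.2 and 24.5 CPM in siSLU7, against 25.5, 22.9 and 23.0 CPM in siGL2. The groups overlapped for both, with log2 fold changes of 0.00 for EIF2AK2 (SE 0.16) and 0.01 for SAMHD1 (SE 0.15). IFIH1 had 1.54, 2.58 and 2.99 CPM in siSLU7, against 3.02, 1.61 and 1.92 CPM in siGL2. ADAR had 133, 138 and 165 CPM in siSLU7, against 172, 154 and 154 CPM in siGL2, a log2 fold change of -0.14 (SE 0.16, adjusted p = 0.584, edgeR). On log2(TPM + 1), EIF2AK2, SAMHD1, IFIT5 and PARP14 passed the test as higher in siSLU7 together with IRF1. The differences were 0.83 for EIF2AK2, 1.07 for SAMHD1, 1.06 for IFIT5 and 0.90 for PARP14 (adjusted p of 0.0225 to 0.0395, limma). Relative to the median of all genes, which was not tested, they were 0.47 for EIF2AK2, 0.72 for SAMHD1, 0.71 for IFIT5 and 0.55 for PARP14. On that scale 18.3% of all genes passed, and 95.2% of the genes past the test were higher in siSLU7, against 42.8% on counts.

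Of the 5 tested interferon regulatory factors, IRF1 rose and IRF3 fell, and IRF2, IRF7 and IRF9 did not pass. IRF1, an activator of interferon and antigen presentation genes that is itself induced by interferon gamma, had 15.8, 14.6 and 18.5 CPM in siSLU7, against 9.05, 5.63 and 7.41 CPM in siGL2. Every siSLU7 library was above every siGL2 library. IRF1 averaged 16.3 ± 2.01 CPM in siSLU7 and 7.36 ± 1.71 CPM in siGL2 (SD, n = 3 each), a log2 fold change of 1.14 (SE 0.22, adjusted p = 0.0166, edgeR). On log2(TPM + 1) the difference was 1.98 (adjusted p = 0.0181, limma), or 1.63 relative to the median of all genes. Only 30.5% of the counts of IRF1 came from protein-coding transcripts and 54.3% from transcripts with a retained intron. On protein-coding transcripts alone the log2 fold change was 1.37 and the test was not passed (SE 0.43, adjusted p = 0.0689, edgeR).

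IRF1 (chr5:132481609-132490798, minus strand, GENCODE 29 on GRCh38) is overlapped by 2 genes on the plus strand, an antisense RNA named IRF1-AS1 in the deposited tables and a protein-coding gene, AC116366.1, that spans the whole of IRF1. The main retained-intron transcript of IRF1, IRF1-209 with 5153 bases and 37.7% of the counts, shares 1716 bases with exons of opposite-strand genes. IRF1-AS1 had 6.15, 4.98 and 4.67 CPM in siSLU7, against 1.63, 2.95 and 2.81 CPM in siGL2. Its log2 fold change was 1.10 (SE 0.31, adjusted p = 0.0496, edgeR), a call that was lost with any 1 library left out (adjusted p of 0.0600 to 0.157, edgeR) and with DESeq2 (adjusted p = 0.0673). The strand setting of the quantification was not stated in any source used here, so reads from the shared bases cannot be assigned to one strand. AC116366.1, too low to test, had 26, 6 and 37 counts in siSLU7, against 0, 0 and 9 in siGL2, and the groups overlapped. Both were looked up because their positions overlap IRF1, after its values were seen.

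IRF3, the factor that MAVS and STING1 signalling activates, had 5.69, 3.32 and 7.29 CPM in siSLU7, against 12.9, 13.7 and 12.7 CPM in siGL2. The groups did not overlap, and the log2 fold change was -1.26 (SE 0.27, adjusted p = 0.0211, edgeR). IRF3-231, a processed transcript of 413 bases with no coding sequence, held 35.1% of the counts of the gene. Its estimated counts were 6.2, 5.7 and 5.5 in siSLU7, against 30.3, 41.9 and 49.99 in siGL2. Without IRF3-231 the gene had 4.78, 2.18 and 6.20 CPM in siSLU7, against 9.14, 8.06 and 6.23 CPM in siGL2, so that the highest siSLU7 value lay just below the lowest siGL2 value. Only 28.2% of the counts of IRF3 came from protein-coding transcripts, and on these alone the log2 fold change was -0.47 (SE 0.51, adjusted p = 0.565, edgeR). BCL2L12, on the opposite strand, overlaps the gene by 734 bases and shares 716 bases with IRF3-219, which held 30.8% of the counts of IRF3, but none with IRF3-231. BCL2L12 had 2.61, 5.35 and 4.48 CPM in siSLU7, against 5.28, 3.08 and 2.43 CPM in siGL2 (adjusted p = 0.770, edgeR).

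The other transcription factors did not pass. STAT2 had 15.5, 18.8 and 14.2 CPM in siSLU7, against 21.0, 25.2 and 21.3 CPM in siGL2, and the groups did not overlap (log2 fold change -0.48, SE 0.18, adjusted p = 0.104, edgeR). IRF9, its partner, had 5.84, 4.42 and 5.42 CPM in siSLU7, against 7.04, 6.43 and 4.86 CPM in siGL2. IRF2, which competes with IRF1 for its sites, had 10.5, 11.8 and 18.3 CPM in siSLU7, against 26.4, 11.5 and 8.43 CPM in siGL2. Its highest siSLU7 and siGL2 values were those of the 2 libraries that stood apart. IRF7, the factor that amplifies interferon production, stayed between 1.13 and 1.85 CPM in all 6 libraries.

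**Figure D3:**
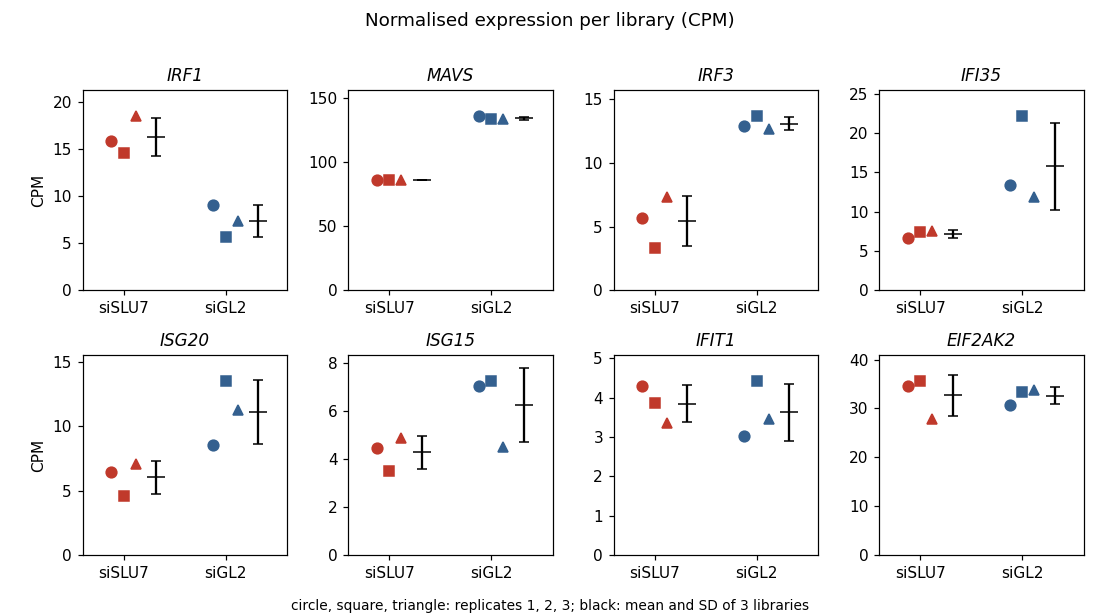
CPM of 8 genes in each library, with siSLU7 left of siGL2; circles, squares and triangles are replicates 1, 2 and 3, and the black bars are the mean and SD of 3 libraries. The groups are apart for IRF1, MAVS, IRF3, IFI35 and ISG20, and they overlap for ISG15, IFIT1 and EIF2AK2.

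No tested gene of the IFIT and OAS families passed the edgeR test, and DESeq2 called none of them either. At an unadjusted p under 0.05 there was 1 of 2 IFIT genes (IFIT5) and 1 of 4 OAS genes (OAS3), against 32% of all genes. IFIT1 had 4.31, 3.87 and 3.36 CPM in siSLU7, against 3.02, 4.42 and 3.45 CPM in siGL2. These values overlapped (log2 fold change 0.09, SE 0.28). IFIT5, a family member that binds cellular and viral RNA, had 10.3, 8.29 and 7.10 CPM in siSLU7, against 5.78, 5.09 and 6.13 CPM in siGL2. All siSLU7 values of IFIT5 were above those of siGL2, with a log2 fold change of 0.60 that missed the threshold (SE 0.23, adjusted p = 0.1096, edgeR).

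The OAS enzymes make the short oligoadenylates that activate RNase L, and OASL is a member without that activity. OAS1 had 32.1, 23.8 and 19.1 CPM in siSLU7, against 20.2, 32.8 and 28.6 CPM in siGL2. OAS3 had 11.8, 9.22 and 14.0 CPM in siSLU7, against 17.1, 15.4 and 15.7 CPM in siGL2. The groups overlapped for OAS1 and not for OAS3, whose log2 fold change was -0.46 (SE 0.20, adjusted p = 0.148, edgeR). OAS2 lay between 0.747 and 3.02 CPM and OASL between 1.47 and 3.64 CPM in the 6 libraries, with overlapping groups.

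Among the other antiviral effectors, 0 of 4 tested genes passed by edgeR or DESeq2, and 1 had an unadjusted p under 0.05 (13.9% of all genes by edgeR's adjusted p, 32% by the unadjusted p). That gene was ISG20, an exonuclease that degrades RNA, with 6.46, 4.61 and 7.10 CPM in siSLU7, against 8.54, 13.5 and 11.2 CPM in siGL2. The groups did not overlap and the log2 fold change was -0.87 (SE 0.26, adjusted p = 0.0542, edgeR). ISG20 passed with both libraries that stood apart left out (-1.14, adjusted p = 0.00802, edgeR), where 29.8% of all genes passed. Those libraries were picked from these same data. MX1 and MX2, dynamin-like GTPases that trap viral particles, had log2 fold changes of 0.17 (SE 0.24) for MX1 and 0.41 (SE 0.20) for MX2. MX1 lay between 5.09 and 8.29 CPM in all libraries. MX2 had 8.77, 9.95 and 9.90 CPM in siSLU7, against 7.16, 6.16 and 8.18 CPM in siGL2, with no overlap and an adjusted p of 0.204 by edgeR. GBP2, an interferon-induced GTPase, varied widely within both groups, with 20.6, 37.0 and 51.8 CPM in siSLU7, against 79.8, 46.1 and 34.6 CPM in siGL2. Its highest values in each group were again those of the libraries that stood apart.

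ISG15, USP18, TRIM25, DTX3L, PARP9 and PARP14 were grouped as ISG15 system and ubiquitin ligases. Of these 6 tested genes 0 passed by edgeR or DESeq2 and 0 had an unadjusted p under 0.05. The same shares of all genes were 13.9% and 32%. ISG15, a ubiquitin-like protein joined to other proteins during the interferon response, had 4.46, 3.50 and 4.86 CPM in siSLU7, against 7.04, 7.23 and 4.47 CPM in siGL2. One siGL2 library lay within the siSLU7 range, and the log2 fold change was -0.54 (SE 0.28, adjusted p = 0.219, edgeR). USP18, which removes ISG15 from proteins, lay between 0.615 and 2.76 CPM. TRIM25 lay between 43.7 and 58.3 CPM. PARP9 and DTX3L, which form a complex and are transcribed from opposite strands of neighbouring sequence, had log2 fold changes of -0.20 (SE 0.33) for PARP9 and -0.13 (SE 0.24) for DTX3L. PARP14, a mono-ADP-ribosyltransferase, had 13.8, 11.4 and 10.8 CPM in siSLU7, against 14.2, 11.4 and 12.9 CPM in siGL2.

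IFI35 was the only one of the 5 other interferon-induced proteins high enough to test. This leucine zipper protein had 6.61, 7.37 and 7.47 CPM in siSLU7, against 13.3, 22.1 and 11.9 CPM in siGL2. All siSLU7 libraries were below all siGL2 libraries, and the siGL2 libraries differed more among themselves (7.15 ± 0.470 CPM in siSLU7 and 15.8 ± 5.53 CPM in siGL2, SD, n = 3 each). The log2 fold change was -1.14 (SE 0.27, adjusted p = 0.0274, edgeR). Protein-coding transcripts held 77.4% of its counts, and on these alone the fold change was -0.91 with the test not passed (adjusted p = 0.0848, edgeR). On log2(TPM + 1) the difference was -0.57, and the test was not passed (adjusted p = 0.0978, limma). The difference was -0.93 relative to the median of all genes.

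Each of the 4 calls depended on single libraries. Without replicate 2 of siSLU7 no gene of the whole table had an adjusted p under 0.05 by edgeR, although 4244 had an unadjusted p under 0.05; DESeq2 was run on all 6 libraries only, where it called 2518 genes (14.7%) and the same 4 of the 28. The share of all genes called was 1.81% without replicate 1, 0% without replicate 2 and 5.64% without replicate 3 of siSLU7, and 25.3% without replicate 1, 2.61% without replicate 2 and 3.58% without replicate 3 of siGL2. IRF1 and MAVS kept their calls when replicate 1 of siGL2 was left out and lost them when any of the other 5 libraries was. For these losses the adjusted p was 0.0514 to 0.0728 for IRF1 and 0.0537 to 0.109 for MAVS. IRF3 kept its call without replicate 3 of siSLU7 or replicate 1 of siGL2, and otherwise its adjusted p was 0.0661 to 0.0799. IFI35 kept its call without replicate 1 or 3 of siGL2, and otherwise its adjusted p was 0.0697 to 0.108. The fold changes themselves kept their direction in all of these fits, between 0.97 and 1.32 for IRF1, -0.67 and -0.64 for MAVS, -1.52 and -1.01 for IRF3, and -1.33 and -0.83 for IFI35. With offsets for GC content and length, IRF1 passed and MAVS, IRF3 and IFI35 did not (10.7% of all genes passed).

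**Figure D4:**
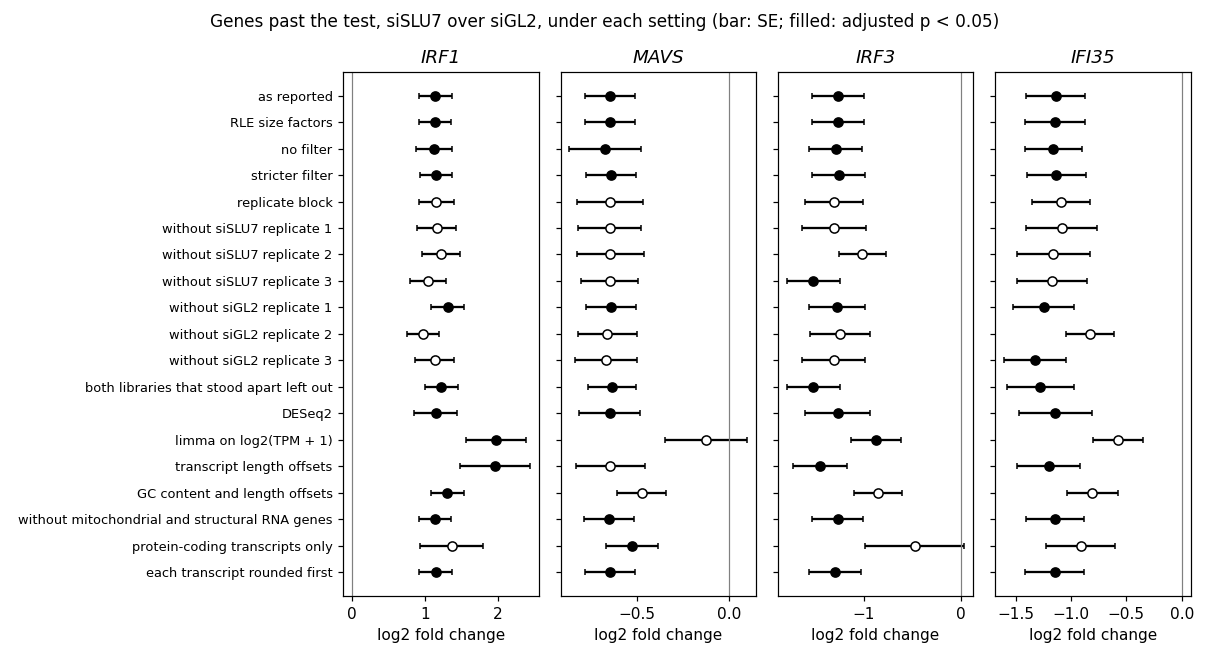
Log2 fold change, siSLU7 over siGL2, of the 4 genes that passed the test under each setting; bars are the SE, filled points had an adjusted p under 0.05 and open points did not. Every point lies on one side of 0 for each gene, and the points without replicate 2 of siSLU7 are open for all 4 genes.

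SLU7 acts in the choice of splice sites, so the kinds of transcript that carried the counts were compared. Transcripts with a retained intron held a median of 8.16% of the counts over the 28 tested genes, against 1.88% over the 12560 tested genes with a coding transcript. In 8 of the 28 genes (28.6%) they held over 50% of the counts, against 7.64% of all genes. These 8 were MX1 with 96.3%, OAS1 with 96.3%, MX2 with 83.7%, IRF9 with 64.9%, OAS2 with 63.5%, OAS3 with 60.5%, IRF7 with 54.8% and IRF1 with 54.3%. The number of annotated retained-intron transcripts differed between genes, with 11 for MX1, 5 for OAS1 and 1 for PARP14. A gene with no such transcript annotated cannot hold a retained-intron share. The 28 genes were not matched to all genes for that number or for expression level, here or between the groups below. The part of annotation and level in these differences from all genes was not tested. MX2 had no counts at all on its protein-coding transcripts. MAVS, IFIT1, ISG15, DTX3L and USP18 had all their counts on protein-coding transcripts. In GBP2, 57.0% of the counts came from transcripts annotated for nonsense-mediated decay.

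Between the groups, the retained-intron share was higher in all siSLU7 libraries than in all siGL2 libraries for 1 of the 28 genes (3.57%), against 12.5% of all 12560 genes, and lower for 1 of the 28, against 1.62% of all. The gene with the higher share was ADAR, with 32.5, 30.7 and 36.6% of its counts in siSLU7, against 10.9, 20.9 and 22.0% in siGL2. The gene with the lower share was OAS1, with 95.0, 95.3 and 91.4% in siSLU7, against 96.0, 98.6 and 97.8% in siGL2. IRF1 had 46.0, 54.3 and 50.7% in siSLU7, against 69.5, 61.0 and 51.7% in siGL2, so its groups overlapped.

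**Figure D5:**
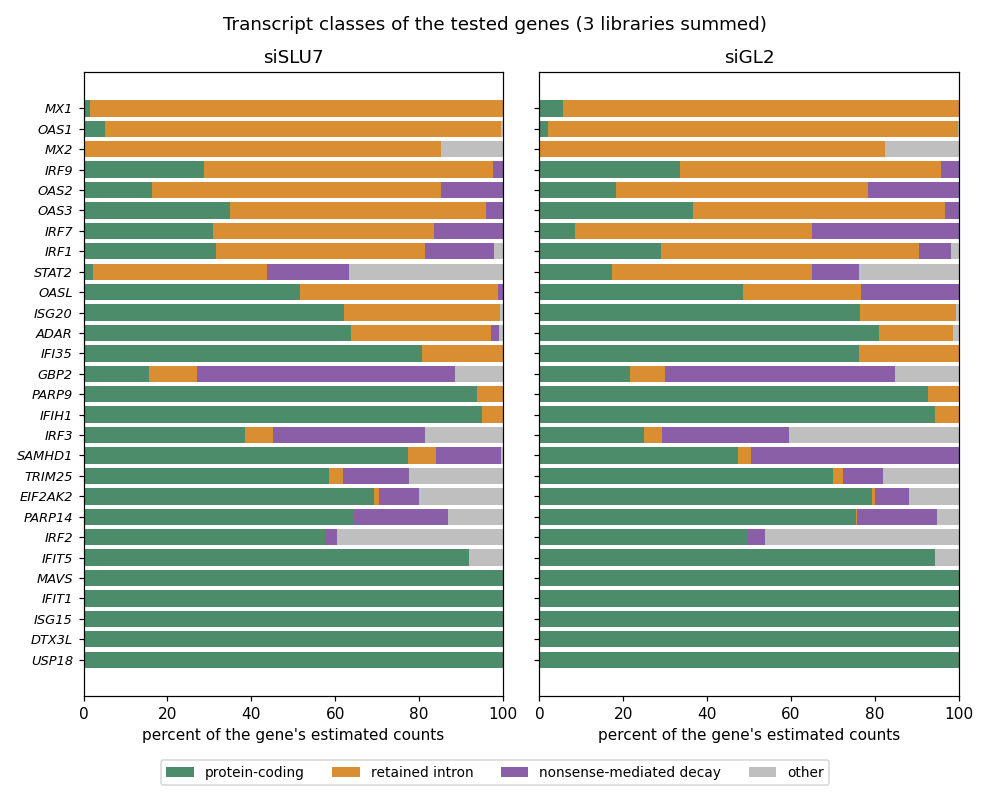
Share of each gene's estimated counts by transcript class (coding, with a retained intron, marked for decay, or other), in siSLU7 (left) and siGL2 (right), for the 28 tested genes with 3 libraries summed per group. Retained-intron transcripts fill most of the bars of MX1, OAS1 and MX2 in both groups, and the bars of MAVS, IFIT1, ISG15, DTX3L and USP18 at the bottom are wholly protein-coding.

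In the test of single transcripts, edgeR called 0 of 43128 transcripts (0%), with 6956 (16.1%) at an unadjusted p under 0.05. Of the 65 tested transcripts of these genes, 6 had an unadjusted p under 0.05, below the share of all transcripts. DESeq2 called 2812 transcripts (6.53%), among them 3 of the 65, namely ADAR-208, IRF3-231 and MAVS-202. ADAR-208, which encodes 1200 amino acids, had estimated counts of 88.4, 35.4 and 34.3 in siSLU7, against 155.8, 289.1 and 149.5 in siGL2. Its values did not overlap between the groups, and the log2 fold change by edgeR was -1.67 (SE 0.47, adjusted p = 0.183). The long ADAR isoform is the one that interferon induces. ADAR-202, with 1226 amino acids, held only 0.563% of the counts of ADAR, with 22.1, 0.0 and 12.9 in siSLU7 and none in siGL2. ADAR-208 held 12.1% and went the other way. ADAR-216, with 1157 amino acids, had 0.0, 34.7 and 11.4 counts in siSLU7, against 0.0, 0.0 and 27.4 in siGL2. ADAR-231 held the most counts (25.2%) and had no coding length in GENCODE 29, so the long isoform as a whole was not compared. The short constitutive isoform of 931 amino acids was counted mostly on ADAR-211, with 42.3, 41.2 and 61.6 counts in siSLU7, against 69.8, 107.5 and 80.5 in siGL2, and on ADAR-219, whose 344.3 counts in replicate 1 of siGL2 stood beside 0.0 in the other siGL2 libraries. The test of transcript usage called 257 of 8869 genes (2.9%) and 0 of the 17 of these genes that had at least 2 tested transcripts. None of the 17 had an unadjusted p under 0.05, against 8.79% of all 8869 genes. The gene-level F test called 442 of all genes (4.98%) and 0 of the 17, and 1 of the 17 had an unadjusted p under 0.05, against 16.2% of all genes.

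Other genes of the pathway were read from lists of 74 genes beside the 39. Of these 46 were tested and 9 passed (19.6%), with 2 higher and 7 lower in siSLU7, against 13.9% of all genes (5.93% higher and 7.93% lower). With both libraries that stood apart left out 14 of 46 passed (30.4%), against 29.8% of all genes, so the share was near the background there. Like every call in the whole table, these 9 were lost without replicate 2 of siSLU7. Of the 10 interferon ligands none was high enough to test. IFNB1, IFNA1, IFNA2, IFNE, IFNG, IFNL1, IFNL2 and IFNL3 had 0 counts in every library, and IFNK and IFNW1 had at most 6 counts.

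Among 9 interferon receptor chains and Janus kinases, 1 was higher and 2 were lower in siSLU7, where 5.93% of all genes were higher and 7.93% lower. JAK2, a kinase of the interferon gamma receptor, had 11.7, 10.1 and 8.22 CPM in siSLU7, against 5.03, 5.09 and 6.65 CPM in siGL2 (log2 fold change 0.84, adjusted p = 0.0440, edgeR). IL10RB, a chain of the interferon lambda receptor, had 1.38, 4.98 and 1.87 CPM in siSLU7, against 9.05, 11.9 and 14.3 CPM in siGL2 (-2.11, adjusted p = 0.0175, edgeR). TYK2, a kinase of the type I receptor, had 12.6, 12.7 and 14.4 CPM in siSLU7, against 16.0, 30.0 and 26.1 CPM in siGL2 (-0.86, adjusted p = 0.0478, edgeR). The groups did not overlap for any of the 3 genes.

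Of 16 further sensing and signalling genes, 11 were tested and only IKBKE, a kinase of IRF3 and IRF7, passed (9.09%, against 13.9% of all genes). IKBKE had 3.54, 4.42 and 2.62 CPM in siSLU7, against 8.04, 7.23 and 6.39 CPM in siGL2 (-1.03, adjusted p = 0.0366, edgeR). IKBKE did not pass with both libraries that stood apart left out, where 3 other genes of the list passed as higher (TBK1, TANK and PRKRA). That was 27.3% of the list, against 29.8% of all genes in that fit. Of the 6 tested negative regulators, 1 was higher and 1 was lower, where 5.93% of all genes were higher and 7.93% lower. SOCS3, an inhibitor of Janus kinases, had 2.46, 4.98 and 3.74 CPM in siSLU7, against 11.1, 12.1 and 10.9 CPM in siGL2 (-1.61, adjusted p = 0.0108, edgeR). TNFAIP3, an inhibitor of NF-kappa B signalling, had 15.7, 24.0 and 30.6 CPM in siSLU7, against 10.2, 10.98 and 8.31 CPM in siGL2 (1.25, adjusted p = 0.0193, edgeR).

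Of 31 other interferon-stimulated genes, 20 were tested, 3 were lower in siSLU7 and none was higher, which is 15% of the 20 and near the 13.9% of all genes. HELZ2, a helicase and nuclear receptor coactivator, had 14.0, 14.7 and 11.4 CPM in siSLU7, against 27.9, 45.8 and 32.2 CPM in siGL2 (-1.40, adjusted p = 0.0102, edgeR). IFITM3, which blocks virus entry, had 11.997, 12.5 and 19.6 CPM in siSLU7, against 25.9, 29.1 and 24.5 CPM in siGL2 (-0.85, adjusted p = 0.0347, edgeR). TRIM5, a restriction factor for retroviral capsids, had 18.8, 20.6 and 20.2 CPM in siSLU7, against 27.9, 36.7 and 27.2 CPM in siGL2 (-0.62, adjusted p = 0.0453, edgeR). Each of these values was lower in every siSLU7 library than in every siGL2 library.

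Set against the promoter letters printed above, 7 of the tested genes had an ISRE core in the RefSeq window, and none of them passed the edgeR test, which 13.9% of all genes passed (median log2 fold change -0.09, between -0.87 for ISG20 and 0.60 for IFIT5). Of the 13 tested genes with a RefSeq promoter that lacked the core, 1 was higher and 2 were lower (median -0.13, between -1.14 for IFI35 and 1.14 for IRF1). The search took only a spacer of 2 bases, so these genes may hold an ISRE of other spacing or outside the window. The IFI35 line printed above holds GAAATGAAA, with 1 base between. The split is thus by these letters and not by the presence of an ISRE. The GAS letters were in 5 tested genes, of which IRF1 rose, IFI35 fell, and PARP14, OAS1 and IRF9 did not pass. MAVS had a match to neither set of letters.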

How the data were processed

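TRIzol extraction and a ScriptSeq mRNA-Seq library kit on polyA RNA are given per the labels' protocols. The submitters' processing notes list, without role or order, the tools kallisto 0.46.1, sleuth 0.30.0, Trimmomatic 0.38 and FastQC 0.11.8, and GRCh38 as build. The deposited estimated counts per transcript, per the file headers, are split between similar transcripts and not normalized. The deposited TPM values are scaled for length and library, per the file headers. The release of the annotation and the strand setting are stated in no source used here, so reads from bases that genes on opposite strands share cannot be assigned to one of them.

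Each library held 234485 transcripts; 159 pseudoautosomal records of Y were added to X. Estimated counts were summed per gene (60607 genes), then rounded. The filter kept genes with about 10 counts in at least 3 libraries and 15 in all. edgeR 4.0.16 in R 4.3.3 used TMM and a quasi-likelihood test of siSLU7 against siGL2 over all tested genes, with Benjamini-Hochberg adjustment at 0.05; transcripts were tested alike, and transcript usage with diffSpliceDGE. DESeq2 1.42.0, limma 3.58.1 on log2(TPM + 1), and other filters, scalings and left-out libraries were alternatives. Named genes were all 39 genes and, per pathway list, up to 4 past the test with the smallest p. The genes and lists were chosen with earlier results of these data known. CPM use the normalized library sizes, and 3 counts equal 0.377 to 0.561 CPM. Positions and overlaps came from GENCODE 29. The scripts were tested on simulated data.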

Additional observations from a re-analysis of the deposited data

How the results depend on the processing

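With all 6 libraries 2371 genes passed, with 1 higher and 3 lower among the 28. Leaving out 1 library at a time gave 0 to 4457 genes, 0 to 1 higher and 0 to 4 lower among the 28, and, for transcript usage, 156 to 808 genes and 0 to 1 of these genes (MAVS, without replicate 1 of siSLU7). Leaving out both libraries that stood apart gave 5248 genes, and 865 genes for usage. Those libraries were picked for their deviations in these same data. Their removal narrows the groups, so the added calls are not independent support. Libraries with the same replicate number did not deviate together (r = -0.41, 0.11 and -0.37 across 17109 genes), so these values gave no sign of pairing by number. For pairs of different number r ran from -0.29 to 0.44, and it was 0.38 for replicate 1 of siSLU7 with replicate 3 of siGL2. Deviations from a group mean sum to 0 within the group, so these values are not independent. A batch shared by libraries of different number was not tested. With the replicate block there were 0 calls by edgeR (4209 genes at an unadjusted p under 0.05), hence 0 higher and 0 lower among the 28, and 87 genes for usage. Limma on log2(TPM + 1) gave 5 higher and 1 lower of the 28. Transcript length offsets gave 842 genes and lost the call of MAVS, and offsets for GC content and length gave 0 lower of the 28. The settings added later, also after seeing the data, were protein-coding transcripts only and rounding each transcript first. Protein-coding transcripts only gave 1429 genes, with 0 higher and 1 lower of the 21 of these genes still tested. Rounding each transcript first gave 2358 genes and the same 4. The unfiltered transcript test called 94 transcripts and DESeq2 2812, with 3 of these genes' transcripts, and the gene-level F test of usage called 442. The cause of these differences was not tested. Depth limits the tests: 11 genes stayed below the filter.

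All sign changes of a log2 fold change were of genes that did not pass the test as reported, and only PARP14 on log2(TPM + 1) passed after its change. On log2(TPM + 1), where the median of all genes stood at 0.35, the values were 0.41 for ADAR, 0.35 for STAT2, 0.45 for IRF2, 0.47 for IRF9, 0.33 for OAS1, 0.065 for OAS2, 0.040 for OAS3, 0.25 for OASL, 0.16 for USP18, 0.68 for TRIM25, 0.048 for PARP9 and 0.90 for PARP14. With transcript length offsets they were -0.30 for IFIH1, 0.060 for IRF9, 0.076 for OASL, 0.011 for USP18, 0.21 for TRIM25 and 0.90 for PARP14. With offsets for GC content and length they were -0.0049 for IFIH1, -0.10 for EIF2AK2, -0.064 for SAMHD1, 0.14 for OASL, 0.030 for ISG15, 0.046 for USP18 and 0.016 for TRIM25. With both libraries that stood apart left out they were 0.16 for IRF2, 0.27 for OAS2, 0.16 for OASL, 0.011 for TRIM25 and 0.064 for PARP14. Without a filter they were -0.022 for EIF2AK2 and -0.016 for SAMHD1, with the replicate block -0.0035 for EIF2AK2, with a stricter filter 0.0021 for OASL, with each transcript rounded first 0.029 for OASL, and with DESeq2 0.0022 for USP18. On protein-coding transcripts they were -0.079 for EIF2AK2, 0.11 for IRF2 and 0.11 for USP18. Leaving out 1 library gave -0.10 to 0.40 for IFIH1, -0.060 to 0.11 for EIF2AK2, -0.032 to 0.060 for SAMHD1, -0.51 to 0.43 for IRF2, -0.034 to 0.23 for IRF7, -0.028 to 0.24 for IFIT1, -0.35 to 0.043 for OAS1, -0.57 to 0.11 for OAS2, -0.22 to 0.28 for OASL, -0.0056 to 0.27 for MX1, -0.40 to 0.43 for USP18, -0.13 to 0.10 for TRIM25, -0.24 to 0.019 for DTX3L and -0.36 to 0.027 for PARP9.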

Other observations

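Some transcripts of these genes had uneven estimated counts, with most of them in 1 library for IRF2-203 and ADAR-203. IRF2-203, a processed transcript of 565 bases, had 13, 14 and 26 counts in siSLU7, against 132, 11 and 15 in siGL2. ADAR-203, a retained-intron transcript, had 0, 14 and 149 counts in siSLU7, against 42, 0 and 0 in siGL2. The high values of both lay in the libraries that stood apart from the rest of their groups. GBP2-204, a processed transcript, had 23, 17 and 30 counts in siSLU7, against 121, 49 and 20 in siGL2.

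SAMHD1 had nearly equal totals in all libraries but an uneven split between kinds of transcript. Protein-coding transcripts held 74.5, 77.1 and 81.1% of its counts in siSLU7, against 27.1, 29.9 and 86.5% in siGL2. Replicate 3 of siGL2 lay above all siSLU7 libraries and the other two siGL2 libraries below them, and the usage test was not passed (adjusted p = 0.99999, edgeR).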
